A study of Mus musculus with 12 samples.

Results

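Histone H3 that carries 1 methyl group at lysine 79 (H3K79me1) was compared with histone H3 that carries 2 (H3K79me2) in the control fibroblasts of a study of AF10. The comparison rests on 4 of the 12 samples of the series, which are the 2 H3K79me1 and the 2 H3K79me2 libraries whose titles mark them as controls (fl). All peaks on the 19 autosomes were used, 592502 of the 603329 peaks in these 4 lists. The series also holds libraries of cells that received Cre and libraries of RNA polymerase II, which are not analysed here.

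The cells were mouse embryonic fibroblasts with floxed AF10 alleles (AF10 fl/fl), the OSKM reprogramming factors and the rtTA transactivator that doxycycline switches on. The controls of both marks had received an adenovirus without Cre (Ad5-CMV-Empty), so AF10 was left in place, and doxycycline at 2 µg/mL followed 2 days later. Chromatin was taken on day 4 of reprogramming, so all 4 libraries come from cells in which the factors were being induced, and none from resting fibroblasts. The cells grew on DR4 feeder fibroblasts. For each precipitation 7.1 µg of chromatin, in fragments of 200 to 400 bp, received 133 ng from the human line 293T as a spike-in and 5 µg of antibody. The antibodies differed between the marks (Abcam ab2886 for H3K79me1, Active Motif 39143 for H3K79me2), so mark and antibody cannot be told apart. No label says that replicates came from separate cultures, and p-values measure only the spread between these samples, which may be technical.

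Lysine 79 lies on the surface of the nucleosome core rather than on the histone tail. DOT1L is its known methyltransferase and adds methyl groups one at a time, releasing the nucleosome between additions, so a dimethylated lysine has passed through the monomethylated state. AF10, also called Mllt10, is a cofactor of DOT1L that favours the higher methylation states. In many cell types dimethylation is found over the start and early body of transcribed genes, and monomethylation extends farther along them. The peak lists are in the mouse build mm9. The gene table at hand is of another build, so no gene, promoter or sequence was tied to a region, and regions are given by position only. For the same reason the cell type could not be checked against marker genes.

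The 4 lists differed in how much they called. H3K79me1 replicates 1 and 2 held 160119 and 155558 peaks over 117.8 and 53.4 Mb, which is 4.88% and 2.21% of the autosomes. H3K79me2 replicates 1 and 2 held 89615 and 187210 peaks over 15.7 and 69.9 Mb, which is 0.652% and 2.89%. The covered length of the marks overlapped between libraries, with H3K79me2 replicate 1 the shortest list and H3K79me1 replicate 1 the longest (two-sided exact permutation test over 6 arrangements of the mark labels, p = 0.667). Where a value rests on domains or on the other mark's lists, these were rebuilt for each arrangement, so libraries that do not overlap need not give the smallest p. That smallest p is 0.33 for 2 against 2 libraries, so no comparison of single values here can reach 0.05. Most peaks were weak by the authors' own q-value: 1 and 5 H3K79me1 peaks and 5139 and 138 H3K79me2 peaks had a q-value of at most 0.05. The peak names record a p setting of p1e3 for H3K79me1 and p1e4 for H3K79me2, so numbers and lengths of peaks also carry a difference in calling. They also name replicate 1 of both marks A, and replicate 2 19 for H3K79me1 and B for H3K79me2, with no stated meaning. Its part in the results was not tested. Read depth is unknown, because the lists give no read counts.

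Single H3K79me1 peaks were wider than single H3K79me2 peaks in these lists. The median peak was 477 and 256 bp in the H3K79me1 libraries and 90 and 197 bp in the H3K79me2 libraries, so both H3K79me1 values lay above both H3K79me2 values. The arithmetic means were 366.5 ± 156 and 143.5 ± 75.7 bp (SD, n = 2 each). On the log2 scale, on which the test was made, the difference was 1.39, a 2.62-fold ratio of the geometric means (exact permutation p = 0.33, the smallest possible). The shortest peak listed also differed between libraries, at 222 and 107 bp for H3K79me1 and 51 and 116 bp for H3K79me2. After peaks within 1 kb were merged into domains, the length-weighted median domain was 6047 and 3220 bp for H3K79me1 and 2389 and 4528 bp for H3K79me2. At this scale the marks overlapped, with a log2 difference of 0.42 (exact permutation p = 0.667). That difference was -0.03 without H3K79me1 replicate 1 and -0.04 without H3K79me2 replicate 1.

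The marks shared a large part of their bases, though on average less than replicates of one mark did. H3K79me1 replicates shared 60.7% of the shorter list and H3K79me2 replicates 76.0%. Replicates numbered 1 of the 2 marks shared 48.4%, and replicates numbered 2 shared 42.4%. H3K79me1 replicate 1 shared 53.0% with H3K79me2 replicate 2, and H3K79me1 replicate 2 shared 38.2% with H3K79me2 replicate 1. All 4 overlaps between marks were thus below both overlaps within a mark on this measure. As a share of the joined length of 2 lists, the order was not complete. H3K79me1 replicate 1 and H3K79me2 replicate 2 shared 24.6% by that measure, above 23.3% between H3K79me1 replicates and 16.3% between H3K79me2 replicates. The other pairs of unlike marks shared 6.05%, 9.55% and 22.5%, and the difference of the means was -4.11 percentage points (exact permutation p = 0.667). The mean over pairs of unlike marks was 45.5% ± 6.52 (SD over 4 pairs that share libraries) against 68.4% within a mark, a difference of -22.8 percentage points (exact permutation p = 0.33, the smallest that 3 pairings of 4 libraries allow). Lists laid down at random would share 2.21% to 4.88%, the covered share of the longer list, so the overlap between marks was 9.92 to 17.3 times that value. Between replicates the overlap was 12.4 times that value for H3K79me1 and 26.3 times for H3K79me2. The order was therefore not complete by this measure either. H3K79me1 replicate 2 reached 17.3 and 14.6 times with H3K79me2 replicates 1 and 2, above the value between H3K79me1 replicates.

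**Figure D1:**
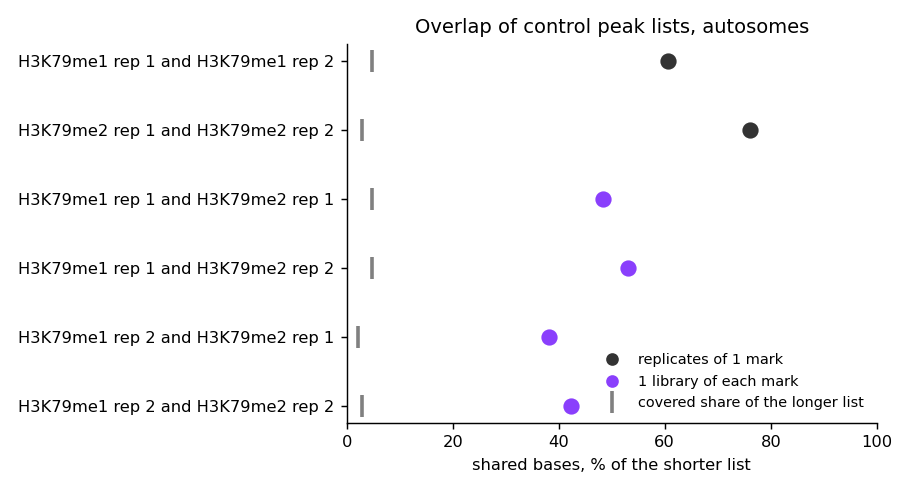
Bases shared by each pair of control peak lists, as a percent of the shorter list (horizontal axis). Black points are replicates of 1 mark, purple points pair 1 library of each mark, and grey ticks give the covered share of the longer list; the purple points lie between 38.2% and 53.0%, below both black points at 60.7% and 76.0%.

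The union of the 4 lists was 167.6 Mb. Of it, 44.9 Mb (26.8%) was covered by at least 1 list of each mark, 93.9 Mb (56.0%) by H3K79me1 alone and 28.8 Mb (17.2%) by H3K79me2 alone. Much smaller lengths were called the same way in every library. All 4 lists covered 3.60 Mb, both H3K79me1 lists and no H3K79me2 list covered 15.4 Mb, and both H3K79me2 lists and no H3K79me1 list covered 4.07 Mb. With all lists trimmed to an equal covered length, these became 0.212, 1.51 and 4.41 Mb, so which mark had the longer reproducible part of its own depended on how much of each list was kept.

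Among bases found in both replicates of a mark, the other mark was often missing. Of the bases in both H3K79me1 lists, 47.6% lay in no H3K79me2 list, 41.2% in 1 and 11.1% in both. Of the bases in both H3K79me2 lists, 34.0% lay in no H3K79me1 list, 36.0% in 1 and 30.0% in both. For comparison, 96.9% of all autosomal bases lay outside H3K79me2 and 94.3% outside H3K79me1. Bases seen in a single list of a mark carried the other mark less often: 73.7% of them lacked H3K79me2 in the case of H3K79me1, and 40.1% lacked H3K79me1 in the case of H3K79me2.

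The share of a library that no list of the other mark covered was 67.5% and 56.0% in the H3K79me1 libraries and 39.7% and 38.0% in the H3K79me2 libraries. Both H3K79me1 values were above both H3K79me2 values, and this order held on 19 of 19 autosomes. The means were 61.7% ± 8.13 and 38.9% ± 1.17 (SD, n = 2 each), a difference of 22.8 percentage points (exact permutation p = 0.667). The share depends on how long the other mark's lists are. Without H3K79me1 replicate 1 the difference was -8.73 points, and with only peaks of a −log10 p of at least 2 it was -13.6 points, the opposite direction.

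H3K79me1 without H3K79me2 lay close to H3K79me2. For each H3K79me1 base outside H3K79me2, the distance was taken to the nearest H3K79me2 domain, made of the peaks of either library merged within 1 kb. The median distance was 551 bp in replicate 1 and 375 bp in replicate 2. Within 10 kb lay 95.8% and 98.1% of these bases, against 60.5% of all autosomal bases outside H3K79me2 peaks. Only 0.106% and 0.0148% were more than 50 kb away. H3K79me1 alone was therefore found almost throughout in the neighbourhood of some H3K79me2 peak in these lists, although most of the genome is also within reach of one.

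Part of H3K79me2 without H3K79me1 lay far from H3K79me1, though a smaller part than of all bases outside H3K79me1. Its median distance to an H3K79me1 domain was 678 bp in replicate 1 and 806 bp in replicate 2. Within 10 kb lay 73.3% and 67.9% of these bases, against 27.1% of all bases outside H3K79me1 peaks. More than 50 kb away were 13.8% and 16.6%, against 39.4% of all bases outside H3K79me1 peaks. The shares within 10 kb did not overlap between the marks (97.0% ± 1.65 for H3K79me1 and 70.6% ± 3.85 for H3K79me2, SD, n = 2 each, exact permutation p = 0.33, the smallest possible). The H3K79me2 lists hold 134078 merged domains and the H3K79me1 lists 80062, so a H3K79me2 domain is nearer to any base to begin with. The difference of 26.3 percentage points was 9.87 without H3K79me2 replicate 2, 15.1 with lists of equal covered length, 6.35 with only the domains found in both lists of the other mark and -2.78 when peaks under 250 bp were left out.

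With only domains of at least 2 kb as targets, the marks were alike in nearness. H3K79me1-only bases lay within 10 kb of such an H3K79me2 domain in 56.1% and 62.9% of cases, against 6.56% of all bases outside H3K79me2. H3K79me2-only bases lay within 10 kb of such an H3K79me1 domain in 64.1% and 55.6%, against 10.1%. The values of the marks overlapped, with a difference of -0.32 percentage points. Replicates give a measure of error for the shares with domains of any width. Bases of an H3K79me1 library outside its own replicate lay within 10 kb of that replicate in 93.3% and 97.7%, and those of an H3K79me2 library in 84.7% and 83.1%. Against a single list of the other mark, the shares were 95.0% and 97.6% for H3K79me1 and H3K79me2 replicate 2, and 80.7% and 85.7% for H3K79me1 and H3K79me2 replicate 1. For H3K79me2 they were 72.2% to 79.7%, below both values between its replicates.

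**Figure D2:**
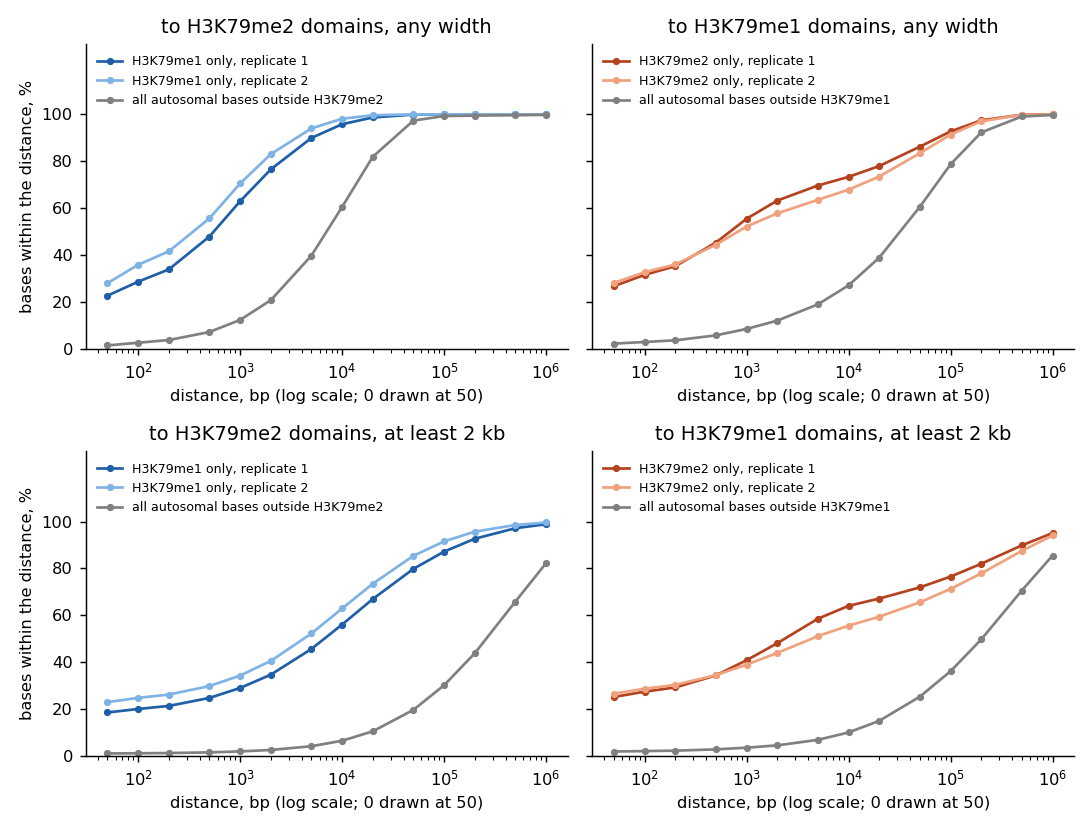
Percent of bases (vertical axis) within a given distance of the nearest domain of the other mark (horizontal axis, bp, log scale), for H3K79me1-only bases (blue, left) and H3K79me2-only bases (red, right), with all autosomal bases outside the other mark in grey. The upper panels use domains of any width and the lower panels those of at least 2 kb; at 10 kb the blue curves reach 95.8% and 98.1% above and 56.1% and 62.9% below.

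Beyond the ends of the other mark's domains H3K79me1 kept more of its inside cover than H3K79me2 did in these lists, but the direction rested on 1 library. Around H3K79me2 domains of at least 2 kb, H3K79me1 covered 62.2% and 34.8% of the bases inside and 28.8% and 11.6% of those within 5 kb outside. Around H3K79me1 domains of that size, H3K79me2 covered 6.61% and 30.3% inside and 1.83% and 5.67% within 5 kb outside. The log2 ratio of outside to inside was -1.11 and -1.59 for H3K79me1 and -1.85 and -2.42 for H3K79me2, so the marks did not overlap. The difference of the means was 0.79 (exact permutation p = 0.667), and it was -0.26 without H3K79me1 replicate 1.

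At 10 to 20 kb from an H3K79me2 domain, H3K79me1 still covered 15.0% and 5.76%, which is 3.08 and 2.61 times its level over all autosomes. At the same distance from an H3K79me1 domain, H3K79me2 covered 0.669% and 2.39%, which is 1.03 and 0.824 times its own. H3K79me1 peaks changed with that distance as well. In replicate 1, those touching an H3K79me2 domain of 2 kb had a median width of 817 bp and 79.3% of them touched a peak of replicate 2. Those more than 100 kb away had a median width of 322 bp, and 15.7% were found again. In replicate 2 the widths were 326 and 191 bp and the shares 84.3% and 35.3%. The far H3K79me1 peaks were thus narrower and less often found again in both libraries. A narrower peak also has less chance to touch a peak of the replicate, and the part of width in this was not tested.

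When all 4 lists were merged within 1 kb, wide domains held both marks and narrow ones mostly a single mark. Of the 153127 joint domains, 110070 were under 500 bp, and 69.5% of these held H3K79me2 only. Among the 20128 domains of at least 2 kb, 17601 (87.5%) held both marks, 2471 held H3K79me1 only and 56 held H3K79me2 only. All 1921 domains of 20 kb and over held both. A wider domain has more room for a peak of each list, so this share grows with width by construction. Cover grew with width too: from 2 to 5 kb up to 50 kb and over, it went from 46.8% to 65.0% and from 18.8% to 33.6% in the H3K79me1 libraries, and from 2.05% to 15.3% and from 13.7% to 51.8% in the H3K79me2 libraries. The relative increase was larger for H3K79me2 in both of its libraries than for H3K79me1 in either; this difference was not tested.

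**Figure D3:**
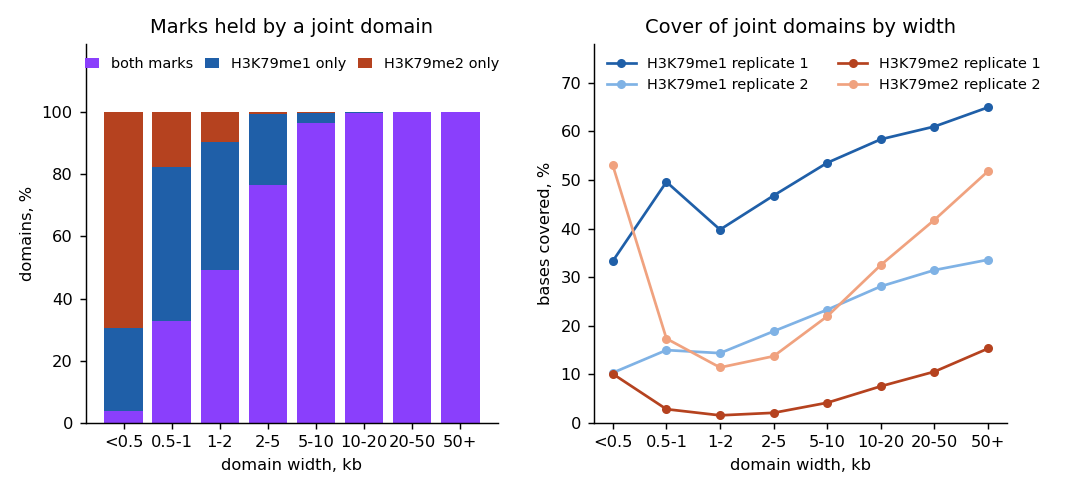
Left, percent of joint domains (vertical axis) that hold both marks (purple), H3K79me1 only (blue) or H3K79me2 only (red), by domain width in kb. Right, percent of the bases of those domains covered by each library; from 2 to 5 kb upward all 4 lines climb, to 65.0% and 33.6% for H3K79me1 and 15.3% and 51.8% for H3K79me2.

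The widest joint domain was chr4:149686621-149880521, of 193901 bp. H3K79me1 covered 75.0% and 37.4% of it and H3K79me2 11.6% and 58.1%. The next was chr8:111225272-111409303, where H3K79me1 covered 73.4% and 33.3% and H3K79me2 19.6% and 63.3%. In both, the order of the 4 libraries was that of their covered lengths over all autosomes. The widest stretch covered without a break in all 4 lists was chr5:125866420-125868509, of 2090 bp, with an authors' fold enrichment of 2.52 and 2.19 for H3K79me1 and 2.61 and 3.13 for H3K79me2 in the peaks that contain it. These enrichments are the authors' own and serve only to describe a peak within its list.

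Over all widths together, the cover of each mark differed little between the edges and the centre of the domains. The 17601 domains of at least 2 kb with both marks, 169.2 Mb in all, were divided into a flank (the outer 25% of the width at each end) and a core (the inner part). H3K79me1 covered 55.3% of the flanks and 59.0% of the cores in replicate 1, and 25.9% and 29.1% in replicate 2. H3K79me2 covered 8.02% and 7.54% in replicate 1, and 31.8% and 34.0% in replicate 2. The log2 ratio of flank to core was -0.09 and -0.17 for H3K79me1 and 0.09 and -0.10 for H3K79me2, and the values of the marks overlapped. The difference was -0.13 (exact permutation p = 0.667). It was 0.01 without H3K79me1 replicate 1. With the outer 1 kb as flank it was 0.38, with domains of at least 5 kb -0.15 and with merging within 5 kb -0.49 (exact permutation p = 0.33 each, the smallest possible). The log2 ratios changed with width. At 2 to 5 kb they were 0.17 and 0.12 for H3K79me1 and 0.08 and 0.13 for H3K79me2. At 20 kb and over they were -0.17 and -0.22 for H3K79me1 and 0.16 and -0.11 for H3K79me2.

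Because all 4 lists set the ends of these domains, the cover was also measured in domains of a single library that took no part in the measurement. In the domains of each of the 4 libraries, the other mark was set more to the flank than the remaining replicate of the same mark, by 0.08 ± 0.07 on the log2 scale (SD over 4 sets of domains that share libraries, range 0.02 to 0.17). This mean was 0.0026 without H3K79me1 replicate 1 and 0.19 without H3K79me2 replicate 2. Ends were more often formed by H3K79me1: 75.8% of the 35202 domain ends were set by an H3K79me1 peak, 24.0% by an H3K79me2 peak and 0.26% by both. With 1 library of each mark, the share set by H3K79me1 was 52.2% to 82.3%, near its 44.0% to 85.4% share of the summed length of the 2 lists.

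Bases with a single mark were placed differently from bases with both. H3K79me2-only bases covered 2.94% of the flanks and 1.71% of the cores in replicate 1, and 9.48% and 6.78% in replicate 2, log2 ratios of 0.78 and 0.48. H3K79me1-only bases had ratios of 0.05 and -0.0008. Bases in all 4 lists had a ratio of -0.43, lower in the flanks. These ratios follow in part from how the domains were built, since an end of a joint domain lies where at least 1 list stops, and they were not tested.

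**Figure D4:**
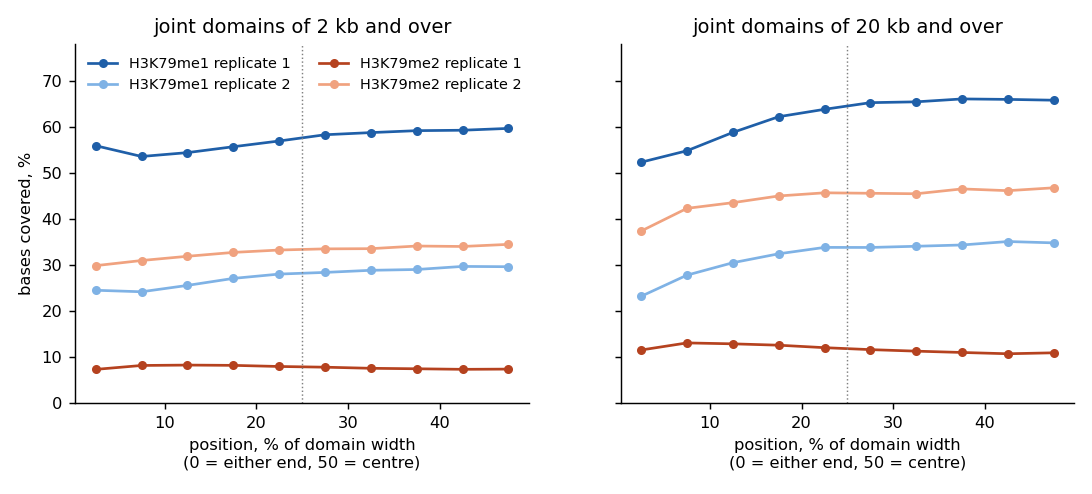
Percent of bases covered by each control library (vertical axis) in 10 steps from either end of a joint domain to its centre (horizontal axis, percent of domain width), for all domains of at least 2 kb with both marks (left) and those of 20 kb and over (right). The dotted line parts flank from core; in the left panel H3K79me1 replicate 1 goes from 55.3% in the flanks to 59.0% in the cores, the widest such step of the 4 libraries.

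Averaging both ends can hide an asymmetry. Within a domain, the centre of the covered bases of H3K79me1 and that of H3K79me2 lay apart, by a median of 11.3% to 20.8% of the domain width over the 4 pairs of unlike marks, against 7.15% between H3K79me1 replicates and 11.2% between H3K79me2 replicates (10142 domains). All 4 values between marks were above both within a mark. The means were 15.8% and 9.16%, a difference of 6.61 percentage points (exact permutation p = 0.33, the smallest that 3 pairings allow). The difference was 2.88 without H3K79me1 replicate 1, 4.15 without H3K79me2 replicate 1 and 12.4 without H3K79me2 replicate 2. With only peaks of a −log10 p of at least 2 it was 1.88.

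The direction of that offset recurred in the second pair of libraries, most in wide domains. The side on which H3K79me2 lay relative to H3K79me1 was the same for the libraries numbered 1 and those numbered 2 in 69.6% of the domains. It was the same in 58.3% of domains of 2 to 5 kb, 65.2% of 5 to 10 kb, 73.5% of 10 to 20 kb and 85.0% of the 1911 domains of 20 kb and over. Across those 1911 domains the signed offsets of the 2 pairs had a Pearson r of 0.77, as a description. The pairs share no library.

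In wide domains, H3K79me2 was concentrated toward one end. Each domain was turned by the centres of both marks in 1 pair of libraries. The end toward which H3K79me2 lay relative to H3K79me1 came first. The position of either mark can thus set the end. Cover was then measured in the other pair, a step added after seeing the data. In domains of 20 kb and over, H3K79me2 replicate 2 covered 58.6% of the first 25% of the width and 27.2% of the last 25%. H3K79me2 replicate 1 covered 20.5% and 4.47%. H3K79me1 did not follow this slope: replicate 2 covered 29.1% and 30.0%, and replicate 1 covered 54.1% and 62.7%. The log2 ratio of the first 25% to the last 25% was 1.11 and 2.20 for H3K79me2 and -0.04 and -0.21 for H3K79me1, a difference of 1.78 (1.15 and 2.41 for the 2 ways of turning). It was 1.77 with lists of equal covered length, over 91 domains, but its make-up changed. There the log2 ratio was 0.77 and 0.70 for H3K79me2 replicates 1 and 2, and -1.16 and -0.90 for H3K79me1 replicates 1 and 2. H3K79me1 thus sloped the other way at that setting, and H3K79me2 less steeply than in the full lists. In domains of 2 to 5 kb the difference was 0.66. With only peaks of a −log10 p of at least 2, it was 0.29, over 6 domains.

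Along the turned domains of 20 kb and over, divided into 20 steps, both H3K79me2 libraries were highest at step 2 (22.7% and 60.8%) and lowest at step 20 (2.82% and 20.1%). Both H3K79me1 libraries were lowest at step 1 (46.5% and 20.8%), the end where H3K79me2 was high, and highest at steps 15 (67.1%) and 12 (35.3%). The outlines of these domains come from all 4 lists, so only the choice of the end was held out. The end that came first was not compared with gene starts, since no gene positions of this build were at hand.

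**Figure D5:**
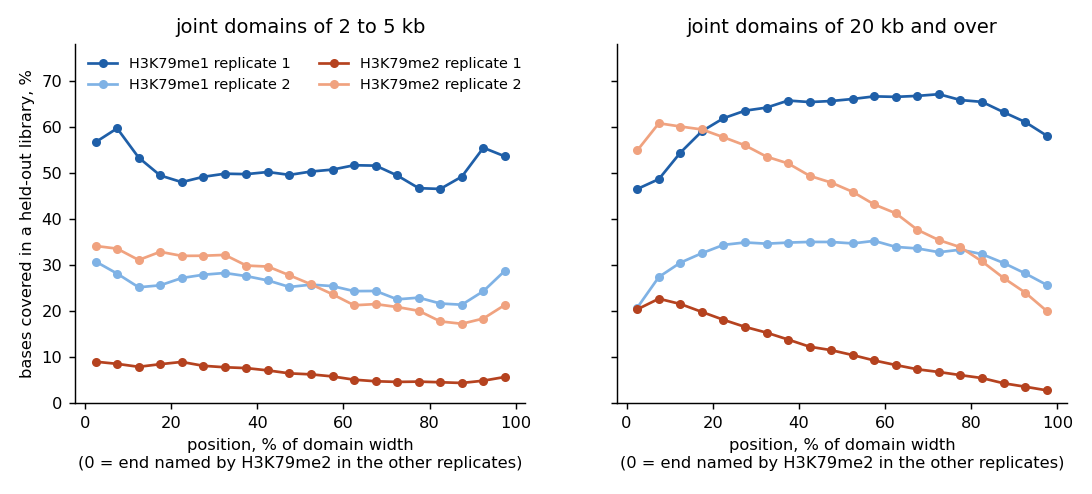
Percent of bases covered (vertical axis) along turned joint domains (horizontal axis, percent of domain width), for domains of 2 to 5 kb (left) and of 20 kb and over (right). The end toward which H3K79me2 lay relative to H3K79me1 in 1 pair of libraries is at 0, and cover was measured in the other pair. On the right the H3K79me2 lines go from 22.7% and 60.8% at step 2 down to 2.82% and 20.1% at step 20, while the H3K79me1 lines are lowest at step 1.

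Long stretches of H3K79me2 without H3K79me1 were found inside domains that also hold H3K79me1. There were 267 stretches of at least 1 kb covered by both H3K79me2 lists and neither H3K79me1 list, and all 267 lay in joint domains with both marks. This was not particular to H3K79me2, since 112 of the 115 H3K79me1-only stretches of at least 1 kb (97.4%) did so too. Of the 267 H3K79me2-only stretches, 163 lay in domains of 20 kb and over, where 141 (86.5%) had their centre in the outer 25% at either end. For stretches of at least 1 kb with H3K79me1 alone this was 29 of 49 (59.2%), and for stretches in all 4 lists 6 of 18 (33.3%). The outer 25% at both ends are together as wide as the inner part, so evenly placed centres would fall in each equally often. For H3K79me2-only stretches of any length in domains of 20 kb and over, the outer share was 60.4% of 10089. The share of 86.5% was 55.2% of 181 stretches with lists of equal covered length. With only peaks of a −log10 p of at least 2 it was 43.9% of 98 stretches. At these settings it was thus close to or below even placement, so it depends on the peaks kept. H3K79me2-only stretches of at least 2 kb numbered 31 and H3K79me1-only stretches of that length 0, although H3K79me1-only bases were the more numerous.

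The surroundings of these stretches are given as a description, since stretches chosen for H3K79me2 without H3K79me1 will tend to have such neighbours. Around the H3K79me2-only stretches, H3K79me1 covered 12.9% and 11.4% of the bases up to 500 bp away, 26.0% and 16.6% at 2 to 5 kb and 27.9% and 16.3% at 5 to 10 kb. H3K79me2 went the other way, from 31.7% and 81.7% at up to 500 bp to 15.2% and 34.4% at 5 to 10 kb. Around the 115 H3K79me1-only stretches of at least 1 kb, H3K79me1 covered 68.8% and 29.8% at up to 500 bp and 43.2% and 22.0% at 5 to 10 kb. H3K79me2 there covered 2.87% and 25.2%, then 4.31% and 21.5%, so it was lower close by in replicate 1 and higher in replicate 2.

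The widest H3K79me2-only stretch was chr10:126416239-126420352, of 4114 bp, in a joint domain of 17594 bp. The peaks that contain it had an authors' fold enrichment of 2.38 and 2.99 in replicates 1 and 2. The next were chr15:77667166-77670638 (3473 bp, in a domain of 77253 bp) and chr16:8734477-8737498 (3022 bp, in a domain of 45685 bp). The widest H3K79me1-only stretch was chr7:16582909-16584863, of 1955 bp, in a joint domain of 58450 bp, with enrichments of 2.44 and 2.04. The H3K79me1-only stretch farthest from any H3K79me2 domain, among the 3287 of at least 500 bp, was chr16:5235142-5235950, with a gap of 38391 bp. Of these 3287 stretches, 8 lay more than 10 kb and 0 more than 50 kb from an H3K79me2 domain.

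In 3 of the 4 libraries the median fold enrichment was higher in peaks that touched the other mark, and in H3K79me2 replicate 1 it was lower. H3K79me1 peaks that touched H3K79me2 had a median fold of 1.94, against 1.62 for those that did not, in replicate 1, and 1.92 against 1.86 in replicate 2. For H3K79me2 the medians were 2.30 with H3K79me1 and 2.49 without it in replicate 1, and 1.84 and 1.81 in replicate 2. H3K79me2 peaks of all widths together thus went in opposite directions in the 2 replicates, but the direction changed with peak width. In replicate 1 only peaks under 200 bp had a lower median with H3K79me1 (2.30 against 2.56), and each wider class had a higher one. In replicate 2 the classes from 200 bp to 1 kb were higher with H3K79me1, and those under 200 bp or over 1 kb were lower. Peaks that touched the other mark were wider in all 4 lists (769 against 363, 324 against 204, 154 against 57 and 303 against 140 bp), and a wider peak has more chance to touch. In H3K79me2 replicate 1, the 8962 peaks with the smallest p-values, the first of 10 rank groups, had a median width of 58 bp, and 24.2% of their bases lay in H3K79me1, the lowest share of the 10 groups. In H3K79me2 replicate 2 the first group had 61.2% in H3K79me1.

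Windows of 50 kb gave the comparison at the scale of large regions. Of the 4424 windows covered by 10% or more on average, 0 differed between the marks by limma at an adjusted p of 0.05 (0% called), and 19 had an unadjusted p under 0.05. Both H3K79me1 libraries were above both H3K79me2 libraries in 1810 windows (40.9%), and both H3K79me2 libraries above both H3K79me1 libraries in 76 (1.72%). The H3K79me1 lists were also the longer on average, at 85.6 against 42.8 Mb, and the part of this in the imbalance was not tested. After quantile normalization of the 4 libraries the 2 counts were 1571 (35.5%) and 1385 (31.3%), and limma called 836 windows, 343 higher in H3K79me1 and 493 higher in H3K79me2. Centred on the median of each library it called 342 (91 and 251). Across these windows the Pearson r of cover was 0.77 between H3K79me1 replicates, 0.84 between H3K79me2 replicates and 0.16 to 0.64 between marks, as a description over 4424 windows that share libraries.

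The window with the largest excess of H3K79me2 was chr13:63350001-63400000, where H3K79me2 covered 51.1% and 85.9% and H3K79me1 20.8% and 15.4%. In chr14:8650001-8700000 H3K79me2 covered 49.5% and 91.7% and H3K79me1 28.1% and 13.1%. In both, each H3K79me2 library was above each H3K79me1 library. The H3K79me1 mean minus the H3K79me2 mean was -50.5 and -50.02 percentage points in these windows, each with an adjusted p of 0.657 by limma. The largest excess of H3K79me1 was in chr11:59950001-60000000, with H3K79me1 at 79.8% and 35.8% and H3K79me2 at 0.726% and 29.6%. The next was chr13:46950001-47000000, with H3K79me1 at 78.1% and 33.9% and H3K79me2 at 2.85% and 24.9%. Here too the libraries did not overlap, and both windows had an adjusted p of 0.657 by limma. The 50 kb windows of the 2 kinds were chosen for their size of difference, so their values are a description.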

How the data were processed

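ChIP-seq peak lists of 4 control libraries were grouped by their titles. The tools in the submitters' processing notes are MACS2, Bowtie2, bedtools, SAMtools 1.2, deepTools and HOMER, and the builds are hg19 and mm9; their roles are not stated. Per the file headers' peak names, each library was called separately as a broad call against an input. For each peak the deposited lists give a score, the authors' fold enrichment (a ratio) and the −log10 of a p-value and of a q-value. No spike-in scaling is recorded in them. No read counts are given, so depth is unknown and precision comes only from the spread between libraries.

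Positions are mm9, printed from base 1. Chance shares used the span to the last peak on each autosome, 2415 Mb in all. Peaks were merged within 1 kb into domains; a base counted as mark-only when no list of the other mark covered it. Single values were compared by two-sided exact permutation tests over the mark labels, and cover of 50 kb windows with limma (empirical Bayes with a trend, Benjamini-Hochberg at 0.05). The named windows were the 5 with the largest difference in each direction among windows whose libraries did not overlap; the named stretches and joint domains were the widest of each kind and the H3K79me1-only ones farthest from H3K79me2, with the first few of each printed. The members, lists and rules were chosen with earlier results of these data known. Interval arithmetic and the limma fit were tested on simulated data. Alternatives were stricter p-values, equal covered length, a minimum peak width, other merging distances, flank definitions and domain sizes, other scalings, leaving out each library, and a replicate block. Chromosome X was left out because 1 list holds no peak there. Versions were limma 3.58.1 in R 4.3.3, and NumPy 2.4.6, pandas 2.3.3, SciPy 1.17.1 and Matplotlib 3.10.9 in Python 3.11.15.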

Additional observations from a re-analysis of the deposited data

Results flagged for a closer look

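In joint domains of 20 kb and over, the 25% of the width at the end that H3K79me2 favoured in one pair of libraries was compared with the opposite 25% in the other pair. Both H3K79me2 libraries had more cover there and both H3K79me1 libraries less, with a difference of 1.78 on the log2 scale; the difference was not tested.

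Chromosome X was outside the comparison. It held 948 peaks in H3K79me1 replicate 2, 2524 in H3K79me2 replicate 1 and 7258 in H3K79me2 replicate 2, while H3K79me1 replicate 1 lists 0.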

How the results depend on the processing

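Over 116 alternatives of the main results, 91 were counted as the same, 14 as reversed and 11 as moved. Some of the 91 could not have come out otherwise. Merging within 500 bp or 5 kb cannot change the share within 10 kb, and a replicate block cannot change the flank against core difference. No exact p fell to 0.05, which this design cannot reach, so for tested values the same means only the same direction. For fold ratios, left-out libraries and turned ends, which had no test, it means a change smaller than the SD of the value, whatever the sign. The H3K79me2 fold ratio (log2) of -0.043 was so counted at 0.0093 without H3K79me1 replicate 1 and 0.030 without H3K79me2 replicate 1. With only peaks of a −log10 p of at least 2, the mark-only share reversed to -13.6 points and flank against core to 0.059. Cover beyond the ends reversed to -0.15 and domain width to -1.05. The moved values were 0.21 for the left-out libraries, 0.29 for the turned ends and 119 of 205 windows called, all higher in H3K79me2. That setting kept 7.98 and 2.60 Mb of H3K79me1 and 12.7 and 10.9 Mb of H3K79me2. With equal covered length, flank against core was 0.0062, domain width -0.57 and the left-out value 0.16. With peaks of at least 250 bp, the share within 10 kb differed by -2.78 points and the H3K79me2 fold ratio was 0.065 (log2). With other-mark domains of at least 2 kb that share differed by -0.32, and with the outer 1 kb as flank the ratio was 0.38. The turned ends gave 0.66 at 2 to 5 kb.

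Leaving out each library in turn gave -8.73 to 51.4 points for the mark-only share, -0.28 to 0.013 for flank against core, -0.26 to 1.39 for cover beyond the ends, -0.037 to 0.89 for domain width, 0.0026 to 0.19 for the left-out value and 0 windows called in each case. The overlap difference (-35.7 to -12.9), the share within 10 kb (9.87 to 28.4 points) and the offset (2.88 to 12.4) kept their direction. The cause of these changes was not tested.

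With the replicate number as a block, flank against core was -0.13 (exact sign-flip permutation p = 0.5, the smallest possible) and limma called 0 windows. Over windows, the deviations of same-numbered libraries from the mean of their mark had r = -0.36. Mean window cover in replicates 1 and 2 was 35.5% and 17.5% for H3K79me1 and 5.15% and 21.1% for H3K79me2. Since these levels enter r, it cannot tell whether the numbers pair the libraries. With crossed numbers, added after seeing the data, the block called 2901 of 4424 windows, 2836 higher in H3K79me1 and 65 higher in H3K79me2. That block joins the longer list of each mark and the shorter list of each mark. The part of list length in this count was not tested. Centring on library medians called 342 and quantile normalization 836. Unknown depth, 2 libraries a mark and weak H3K79me1 peaks limit what can be told apart.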
